A study of Mus musculus with 18 samples.

Results

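The genes described here are the 4 stearoyl-CoA desaturases of the mouse, Scd1, Scd2, Scd3 and Scd4, and 6 further enzymes of fatty acid synthesis, Fasn, Acaca, Elovl6, Fads1, Fads2 and Me1. They are 10 of the 20612 gene symbols in the deposited table, and were found by symbol. They had been chosen by the RPKM difference between QKO and TKO libraries, so that difference is given below as values without a test. Of the 10 genes, 9 were among the 11890 genes that reached an RPKM (reads scaled to transcript length in kilobases and to library size) of 1 in at least 2 libraries and entered the tests. Scd4 was left out of the tests, as 1 library reached that level, and Scd3 was kept through its QKO libraries.

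The libraries came from muscle stem cells (MuSCs) of 4-month-old mice with the strain label C57BL/6, collected as MuSCs (Day 0) and after 1 and 2 days in differentiation medium (Day 1 and Day 2). There were 3 genotypes with 2 libraries on each day, 18 libraries in all. WT were wild-type semi-cloned mice, DSM-TKO mice (TKO) were heterozygous mutants of Dmpk, of Six5 and of Mbnl1, and DSMD-QKO mice (QKO) carried a heterozygous mutation of Dmwd besides. All 3 genotypes, WT included, arose by injection of androgenetic haploid embryonic stem cells of the O48 line, which lacks the H19 and IG differentially methylated regions, into oocytes of C57BL/6J x DBA/2 hybrid females. The TKO cells descended from edited O48 clones, and the QKO cells from a clone of the TKO series. The MuSCs had been expanded in culture before Day 0. The labels do not say whether the libraries of a group came from separate animals or cultures, so p-values measure the spread between libraries, which may be technical.

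De novo fatty acid synthesis turns acetyl-CoA into malonyl-CoA by acetyl-CoA carboxylase (Acaca), and fatty acid synthase (Fasn) builds palmitate from both, using NADPH that malic enzyme (Me1) helps to supply. Elovl6 lengthens palmitate to stearate, and the Scd enzymes put a double bond into palmitoyl-CoA and stearoyl-CoA to give palmitoleate and oleate. Fads2 and Fads1 desaturate dietary polyunsaturated fatty acids on the way to arachidonic and docosahexaenoic acid. In liver and fat many of these genes are under the control of the transcription factors SREBP and LXR.

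The 4 Scd genes form a cluster on chromosome 19 (GRCm38.p6, RefSeq) in the order Scd3 (44203288 to 44244016), Scd2 (44293676 to 44306864), Scd4 (44333326 to 44346743) and Scd1 (44394450 to 44407709). Scd3, Scd2 and Scd4 lie on the plus strand and Scd1 on the minus strand. Fads2 (10062765 to 10101503) and Fads1 (10182877 to 10196874) are on the same chromosome, Acaca (84129635 to 84401651) and Fasn (120805958 to 120825166) on chromosome 11, Elovl6 (129532386 to 129638495) on chromosome 3 and Me1 (86581363 to 86695914) on chromosome 9. The GENCODE transcripts of the Scd genes share between 1.12% and 4.77% of their exact 50-base words with another Scd gene, so most read-length stretches of each gene were its own.

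RefSeq promoter sequences (GRCm38.p6) were at hand for Scd3, Scd4, Fasn, Acaca, Elovl6, Fads2 and Me1. The 250 bases before a RefSeq transcript start are shown, which for Scd3, Scd4 and Fads2 is the edge of the gene span given above and for Fasn a start inside it. They are shown for Scd3 and Scd4, which were higher in the QKO libraries of Days 1 and 2, and for Fads2 and Fasn, which were lower in the mutants than in WT at Day 0. Capitals mark a CCAAT box (CCAAT), a Sp1 box (GGGCGG) or either read on the other strand.
Scd3 promoter, chr19:44203038-44203287, plus strand: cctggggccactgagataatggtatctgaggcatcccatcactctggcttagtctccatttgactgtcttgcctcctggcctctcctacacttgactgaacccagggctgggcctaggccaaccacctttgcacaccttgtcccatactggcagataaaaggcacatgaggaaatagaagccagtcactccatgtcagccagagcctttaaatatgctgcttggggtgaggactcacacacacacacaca
Scd4 promoter, chr19:44333076-44333325, plus strand: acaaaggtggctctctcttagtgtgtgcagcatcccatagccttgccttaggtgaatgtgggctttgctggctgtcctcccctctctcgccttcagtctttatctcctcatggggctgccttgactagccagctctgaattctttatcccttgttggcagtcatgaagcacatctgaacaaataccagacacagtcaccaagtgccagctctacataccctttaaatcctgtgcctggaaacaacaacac
Fads2 promoter, chr19:10101504-10101753, minus strand: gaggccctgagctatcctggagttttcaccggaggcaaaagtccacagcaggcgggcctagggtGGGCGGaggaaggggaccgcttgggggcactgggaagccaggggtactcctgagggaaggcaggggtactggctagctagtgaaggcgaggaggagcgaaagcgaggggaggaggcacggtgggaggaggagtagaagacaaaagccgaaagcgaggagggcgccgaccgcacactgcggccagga
Fasn promoter, chr11:120824548-120824797, minus strand: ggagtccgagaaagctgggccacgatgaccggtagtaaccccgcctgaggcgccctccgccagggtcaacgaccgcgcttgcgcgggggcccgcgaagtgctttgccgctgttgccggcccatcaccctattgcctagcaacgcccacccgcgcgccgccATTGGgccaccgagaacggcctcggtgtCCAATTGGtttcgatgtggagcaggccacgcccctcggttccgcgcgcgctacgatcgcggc
The Fasn window held 3 CCAAT boxes, at bases -90 to -86, -62 to -58 and -59 to -55 from that start, of which the last 2 overlap. The Fads2 window held a Sp1 box at bases -186 to -181, and the Scd3 and Scd4 windows held neither motif. A CCAAT box was in 33.8% and a Sp1 box in 32.7% of the 32817 promoter windows of this length. An E-box (CACGTG, in 6.02% of all windows), the sterol regulatory element (in 0.192%) and the LXR repeat (in 0.0152%), searched on both strands, had no match in the windows of these genes.

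Some libraries stood apart. On log2(RPKM + 1) over the tested genes, the replicates of WT Day 0 correlated at 0.961, those of WT Day 2 at 0.976 and those of QKO Day 0 at 0.979, while the other groups reached 0.988 to 0.995. WT Day 0 replicate 2 had an RPKM total of 517060, against 353866 to 402145 in the other libraries. WT Day 2 replicate 2 was closer to the TKO and QKO libraries of Day 2 (r from 0.983 to 0.993) than to its own replicate, and QKO Day 0 replicate 2 reached 0.982 with a TKO library. Dmwd had 28.4 to 44.2 RPKM in the QKO libraries and 45.3 to 81.1 in the others, and Dmpk was lower in the mutants at Day 0, with a log2 change of -0.73 (limma, adjusted p = 0.0040). Six5 had 1.25 to 1.59 RPKM in the mutants at Day 0 against 2.26 and 3.39 in WT, while Mbnl1 had 12.1 to 21.0 RPKM against 18.9 and 7.23, so its RPKM was not lower. At Days 1 and 2 the mutants' mean did not differ from WT past the threshold for any targeted gene. Dmpk stood at -0.45 and -0.36 (adjusted p = 0.15 and 0.73) and Six5 at 0.09 and -0.27 (adjusted p = 0.80 and 0.82). The muscle stem cell markers were present in every library. None of 7 adipocyte markers reached 1 RPKM in any library, and their summed level was at most 0.382 RPKM.

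Scd2 and Scd1 rose from Day 0 to Day 1 in WT and in the mutants, and Scd2 was the main desaturase transcript throughout. The WT libraries of Days 0, 1 and 2 had 82.1 and 42.2, then 336 and 342, then 616 and 631 RPKM of Scd2. Scd1, the isoform best known from liver and fat, went in WT from 1.40 and 0.630 RPKM through 34.6 and 34.8 to 82.0 and 109. In these bulk libraries fewer cells of a kind and less RNA per cell cannot be told apart. In WT the change from Day 0 to Day 1 was 4.17 ± 0.38 (SE) on the log2(RPKM + 1) scale for Scd1 (limma, adjusted p = 4.6e-07) and 2.504 ± 0.36 for Scd2 (adjusted p = 3.4e-05). From Day 1 to Day 2 Scd1 rose again by 1.42 ± 0.38 (adjusted p = 0.023), a call that ended without either WT Day 1 library or without WT Day 2 replicate 2 (adjusted p from 0.11 to 0.15), while Scd2 gave 0.88 ± 0.36 (adjusted p = 0.12).

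At Day 0 the TKO libraries had the most Scd1 and Scd2. Scd1 stood at 3.94 and 7.66 RPKM in the TKO libraries and 1.15 and 1.84 in the QKO libraries. For Scd2 the TKO values were 121 and 154 RPKM and the QKO values 27.5 and 59.3. Both TKO libraries lay above both WT libraries for both genes, and the QKO range overlapped that of WT. At Day 1 every mutant library lay below both WT libraries. For Scd1 the TKO values were 29.4 and 21.8 RPKM and the QKO values 24.3 and 10.7, and for Scd2 they were 330 and 244 against 193 and 115. At Day 2 the ranges of the mutants overlapped, with 77.7 and 86.4 RPKM of Scd1 (TKO) beside 84.5 and 44.3 (QKO), and 541 and 633 of Scd2 (TKO) beside 582 and 439 (QKO).

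**Figure D1:**
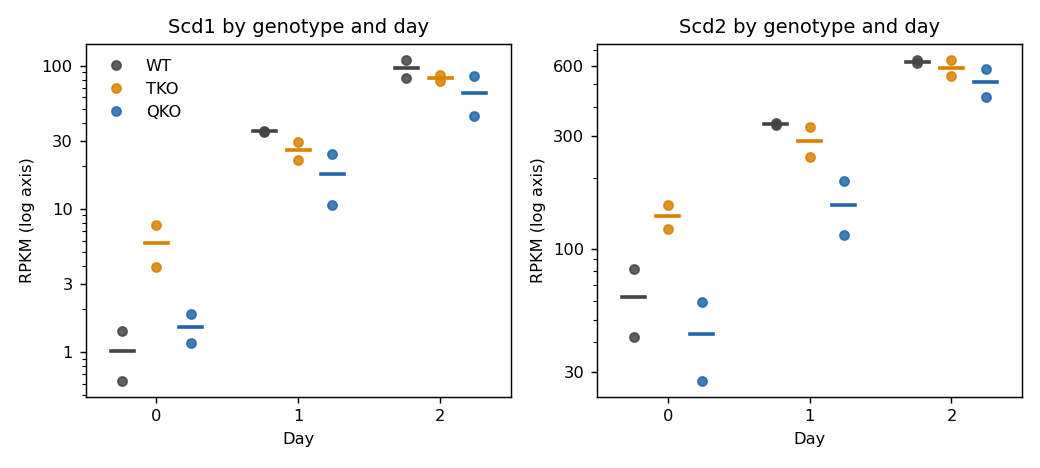
Scd1 (left) and Scd2 (right) in RPKM on a log axis against day, for WT, TKO and QKO, with 1 point per library and a bar at the mean of the 2 libraries of a group. Both genes climb with day in every genotype; TKO is highest at Day 0 (Scd2 at 121 and 154 RPKM), and at Day 1 QKO is lowest for Scd2 (193 and 115) and overlaps TKO for Scd1.

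Tested as the mean of TKO and QKO against WT, a contrast that does not use the difference between the mutants, Scd1 was higher in the mutants at Day 0, with a log2 change of 1.02 ± 0.33 (limma, adjusted p = 0.026). The part of each mutant was unequal, at 1.73 in TKO and 0.32 in QKO against WT. The call ended without WT Day 0 replicate 2 (0.74, adjusted p = 0.24), without TKO Day 0 replicate 2 (adjusted p = 0.085) or without QKO Day 0 replicate 2 (adjusted p = 0.069), and also with quantile normalization (0.76, adjusted p = 0.096) and with only the libraries compared (adjusted p = 0.058). Beside it, all 5 markers of differentiating muscle cells were higher in the mutants at Day 0, where 19.1% of all genes were. Their summed level was 1928 to 3696 RPKM against 562 to 835 in WT. Of 5 muscle stem cell markers, 2 were called higher (Myf5 and Myod1) and 0 lower, where 18.8% of all genes were lower. The summed level of these 5 was 1276 to 1391 RPKM against 860 to 923 in WT. The summed level of 4 fibroblast markers was 166 to 220 RPKM against 88.4 to 92.2. That sum rested on Ly6a and Col3a1, as only 2 of the 4 markers reached 1 RPKM in any library. The part of these muscle and fibroblast markers in the Day 0 differences here and below was not tested. Scd2 differed from WT by 0.33 ± 0.31 (adjusted p = 0.41), higher than WT in TKO and lower (-0.53) in QKO. At Day 1 the mutants' Scd1 and Scd2 were at -0.75 ± 0.33 and -0.72 ± 0.31 (adjusted p = 0.24 and 0.23), and at Day 2 at -0.41 and -0.20 (adjusted p = 0.93 and 0.99).

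The rise from Day 0 to Day 1 of Scd1 was smaller in the mutants, at 2.40 ± 0.27 (adjusted p = 2.5e-06), than in WT, and the difference of the 2 changes was -1.77 ± 0.46 (limma interaction, adjusted p = 0.021). Without WT Day 0 replicate 2 this was -1.49 (adjusted p = 0.098), and without either WT Day 1 library the adjusted p was 0.077 and 0.074. With quantile normalization it was -1.43 (adjusted p = 0.063). Scd2 rose in the mutants by 1.45 ± 0.25 (adjusted p = 1.7e-04), with a difference from WT of -1.05 ± 0.44 (adjusted p = 0.12). Between Day 1 and Day 2 both genes rose in the mutants, Scd1 by 1.76 ± 0.27 (adjusted p = 9.7e-04) and Scd2 by 1.40 ± 0.25 (adjusted p = 0.0028).

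The makeup of the desaturase transcripts changed with day. Scd2 made up 94.4% to 97.9% of the summed Scd RPKM at Day 0, 87.7% to 91.8% at Day 1 and 85.2% to 89.9% at Day 2. The ratio of Scd2 to Scd1, with both levels per length, at Day 0 was 58.7 and 67.1 (WT), 30.7 and 20.1 (TKO) and 23.8 and 32.3 (QKO). At Day 2 it was 5.77 to 9.93 in all 6 libraries, and the genotypes overlapped.

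Scd3 and Scd4 behaved differently from Scd1 and Scd2: at Days 1 and 2 they stood higher in every QKO library than in any WT or TKO library. Scd3, known in the mouse from skin, had 2.32 and 1.39 RPKM in QKO at Day 1 and 6.96 and 4.27 at Day 2. The TKO libraries had 0.0256 and 0.0938, then 0.132 and 0.181, and the WT libraries 0.0532 and 0.0267, then 0.212 and 0.0868. The ratio of the QKO to the TKO mean was 31.1 at Day 1 and 35.9 at Day 2. At Day 0 QKO (0.414 and 0.726 RPKM) overlapped WT (0.514 and 0.129), and the TKO libraries had 0 and 5 reads, where a count of 0 allows up to 3.

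Scd4, known in the mouse from heart, followed the same order at a lower level. It had 0.437 and 0.239 RPKM in QKO at Day 1 and 1.10 and 0.854 at Day 2, against 0.00930 to 0.130 in the TKO libraries of these days and 0.0171 to 0.0904 in the WT libraries. These are few reads: the QKO libraries had 80 and 32 recovered Scd4 reads at Day 1 and 169 and 106 at Day 2, and the TKO libraries of Day 2 had 1 and 7. At Day 0 Scd4 was higher in WT (0.272 and 0.151 RPKM) than in TKO (0.0252 and 0.0400) or QKO (0.0659 and 0.113).

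The Scd3 values carry an uncertainty of annotation. In RefSeq the model of Pkd2l1, a channel gene on the opposite strand, spans 44147637 to 44248328 and holds all 40729 bases of the Scd3 span, whereas no other RefSeq gene overlaps Scd4. The Pkd2l1 row followed the Scd3 row, with 1384 and 752 reads in QKO at Day 2 where Scd3 had 1205 and 598, 529 and 252 at Day 1 where Scd3 had 479 and 210, and 21 and 34 in TKO at Day 2 where Scd3 had 16 and 26. Whether the counting used strand is not given in the sources used here, so reads in the stretch they share cannot be told apart. Pkd2l1 had more reads than Scd3 by 50 and 42 in QKO at Day 1 and by 179 and 154 at Day 2. In the WT and TKO libraries of these days the excess was 3 to 8 reads. As a share of the Scd3 reads the excess was not higher in QKO. In TKO at Day 2 it was 5 and 8 reads where Scd3 had 16 and 26. The shares in WT and TKO rest on few reads. Of the other neighbours, Sec31b at Day 1 had 0.920 and 0.926 RPKM in the QKO libraries, above the TKO (0.458 and 0.498) and WT libraries (0.155 and 0.251), but at Day 2 its QKO values (0.633 and 0.714) lay below those of TKO (0.882 and 0.783) and WT (0.738 and 1.08). Bloc1s2 was lower in QKO than in WT and TKO on both days, at 16.6 to 18.99 RPKM against 19.1 to 27.2. Ndufb8 was lower in QKO as well, with 78.8 and 80.5 RPKM at Day 1 (WT and TKO 83.8 to 122.5). At Day 2 it had 91.6 and 103.0 (WT and TKO 118.9 to 122.6). Over all genes both QKO libraries lay below both TKO libraries for 29.5% at Day 1 and 42.3% at Day 2. Chuk had 10.9 to 22.5 RPKM over all libraries.

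**Figure D2:**
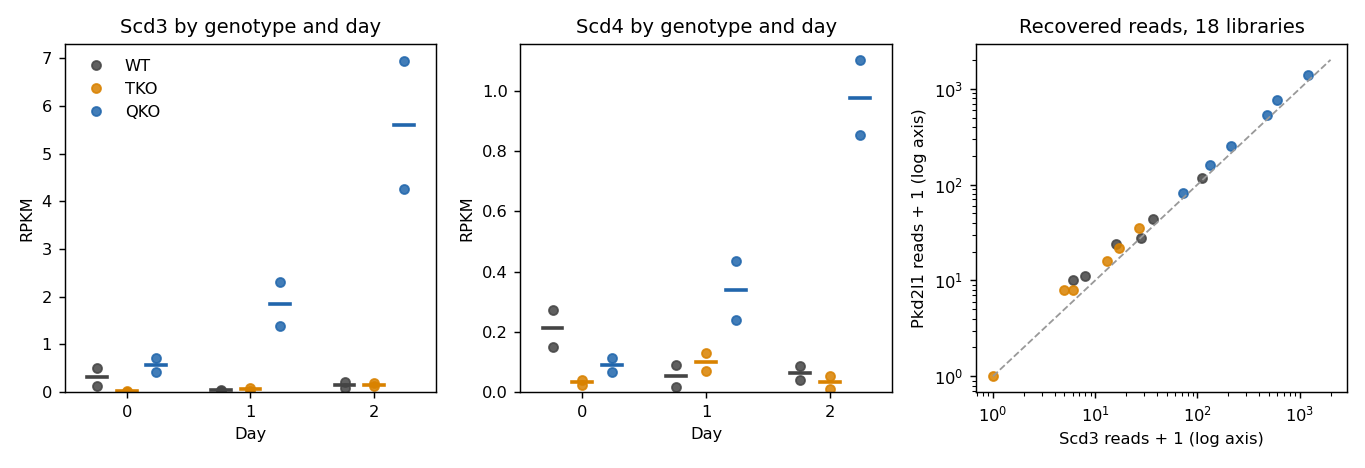
Scd3 (left) and Scd4 (middle) in RPKM against day, with 1 point per library and a bar at the group mean, and recovered reads of Pkd2l1 against Scd3 (right, both plus 1, log axes, dashed line at equality) in the 18 libraries. QKO stands above WT and TKO at Days 1 and 2 (Scd3 up to 6.96 RPKM, Scd4 up to 1.10), and the Pkd2l1 reads lie on or above the line of equality, up to 1384 where Scd3 has 1205.

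Scd3 entered the tests only through the QKO libraries where it is high, so its fitted changes are given as values and support nothing. The mutants' mean lay 0.73 ± 0.18 above WT at Day 1 and 1.25 ± 0.18 at Day 2 on the log2(RPKM + 1) scale, and TKO alone was within 0.03 of WT on both days. The scale compresses such low values: voom on the recovered reads gave log2 changes of 2.94 at Day 1 and 2.78 at Day 2, neither past the threshold (adjusted p = 0.24 and 0.50).

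Acaca and Elovl6 fell where Scd1 and Scd2 rose. Acaca had 7.02 to 10.4 RPKM in WT and TKO at Day 0 and 5.87 and 8.13 in QKO, against 2.66 to 4.22 at Day 1 and 4.30 to 5.96 at Day 2 over all genotypes. It fell from Day 0 to Day 1, with a log2 change of -1.003 ± 0.20 in WT (limma, adjusted p = 6.4e-04) and -1.12 ± 0.14 in the mutants (adjusted p = 9.2e-06), and rose from Day 1 to Day 2 in the mutants by 0.64 ± 0.14 (adjusted p = 0.0084). In WT the second step was 0.35 ± 0.20 (adjusted p = 0.28). No test separated the mutants' Acaca from WT, with differences of -0.13, -0.25 and 0.05 at Days 0, 1 and 2 (adjusted p = 0.58, 0.50 and 0.998). Its span holds Gm11437, also in the table and on the other strand, for 19116 of 272017 bases, so reads of that stretch are uncertain.

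Fasn varied little outside Day 0. Its Day 0 levels were 45.3 and 31.7 RPKM (WT), 31.5 and 28.3 (TKO) and 22.9 and 29.1 (QKO). All other libraries lay between 19.9 and 29.6. At Day 0 the mutants had less Fasn than WT, by -0.44 ± 0.14 (adjusted p = 0.025), with -0.34 in TKO and -0.54 in QKO. The call ended when only the libraries compared were fitted (adjusted p = 0.19). Without WT Day 0 replicate 1 the value was -0.19 (adjusted p = 0.25), without TKO Day 0 replicate 2 -0.40 (adjusted p = 0.072) and without QKO Day 0 replicate 1 -0.35 (adjusted p = 0.065). At Day 1 it was -0.32 ± 0.14 (adjusted p = 0.23) and at Day 2 -0.06 ± 0.14 (adjusted p = 0.997).

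Me1 was lower in the mutants than in WT at Day 1. The WT libraries had 26.1 and 22.2 RPKM at Day 0 and 24.7 and 27.1 at Day 1, where TKO had 15.6 and 18.5 and QKO 17.2 and 14.2. The difference at Day 1 was -0.63 ± 0.13 (adjusted p = 0.020), with -0.58 in TKO and -0.69 in QKO, and it ended without either WT Day 1 library (adjusted p = 0.11 and 0.22), without TKO Day 1 replicate 1 (adjusted p = 0.070) or without QKO Day 1 replicate 2 (adjusted p = 0.067). By Day 2 the WT libraries had 13.4 and 10.6, the TKO libraries 12.5 and 12.1 and the QKO libraries 10.7 and 8.61. Me1 fell between Day 1 and Day 2, with -1.06 ± 0.16 in WT (adjusted p = 0.0012) and -0.54 ± 0.11 in the mutants (adjusted p = 0.0051).

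Elovl6 levels at Day 0 were 8.40 and 5.44 RPKM (WT), 8.72 and 8.52 (TKO) and 3.76 and 7.33 (QKO). It had 2.06 to 4.24 RPKM at Day 1 and 2.35 to 3.76 at Day 2. It fell from Day 0 to Day 1, with -1.27 ± 0.17 in the mutants (adjusted p = 1.9e-05) and -0.70 ± 0.25 in WT (adjusted p = 0.023), the latter losing its call without WT Day 0 replicate 1 (-0.42, adjusted p = 0.19) or without WT Day 1 replicate 1 (-0.57, adjusted p = 0.14). The call in WT was also lost with quantile normalization (-0.23, adjusted p = 0.43) and by voom on the recovered reads (-0.42, adjusted p = 0.22). With only the libraries compared its adjusted p was 0.079. At Day 1 the WT libraries (3.40 and 4.24) lay above all 4 mutant libraries (2.06 to 2.49), a difference of -0.58 ± 0.21 that did not pass (adjusted p = 0.17).

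Fads2, which catalyses the entry step of polyunsaturated fatty acid synthesis, was lower in the mutants at Days 0 and 1. Its WT libraries had 22.0 and 12.7 RPKM at Day 0, then 12.7 and 10.4, then 31.4 and 30.5. The TKO libraries had 9.31 and 11.8, then 6.86 and 6.70, then 21.6 and 24.7, and the QKO libraries 3.63 and 5.71, then 4.61 and 2.87, then 19.3 and 18.04. On each day both WT libraries lay above both TKO libraries, and these above both QKO libraries. The mutants' mean was below WT at Day 0 by -1.15 ± 0.21 (limma, adjusted p = 0.0012), which held in every alternative and without any single library. At Day 1 it was -1.06 ± 0.21 (adjusted p = 0.016), which ended without either WT Day 1 library (adjusted p = 0.19 and 0.10), without TKO Day 1 replicate 2 (adjusted p = 0.054) or without QKO Day 1 replicate 2 (adjusted p = 0.052). At Day 2 it was -0.56 ± 0.21 and did not pass (adjusted p = 0.59).

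Fads1, the next desaturase of that pathway, was highest in cells at Day 0, with 21.8 to 25.0 RPKM in WT, 18.1 to 21.8 in TKO and 18.4 to 19.1 in QKO. At Day 1 the genotypes did not overlap, with 6.32 and 6.78 RPKM (WT), 4.53 and 5.10 (TKO) and 3.63 and 3.97 (QKO). The mutants' mean at Day 1 was -0.52 ± 0.11 from WT (adjusted p = 0.021), and the call ended without any 1 of 5 libraries of that day, with an adjusted p of 0.12 and 0.22 without a WT library, 0.076 and 0.052 without a TKO library and 0.058 without QKO replicate 1. At Day 2 the order was the same, with 8.61 and 9.31 (WT), 8.13 and 7.87 (TKO) and 7.04 and 7.21 (QKO), and a difference of -0.22 ± 0.11 (adjusted p = 0.79). With day the Fads genes, both on chromosome 19, took different courses. Fads1 fell from Day 0 to Day 1, with -1.69 ± 0.13 in WT and -1.94 ± 0.09 in the mutants (adjusted p = 8.5e-08 and 6.2e-10), and Fads2 rose from Day 1 to Day 2 by 1.35 ± 0.25 in WT and by 1.85 ± 0.17 in the mutants (adjusted p = 0.0034 and 5.7e-05).

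**Figure D3:**
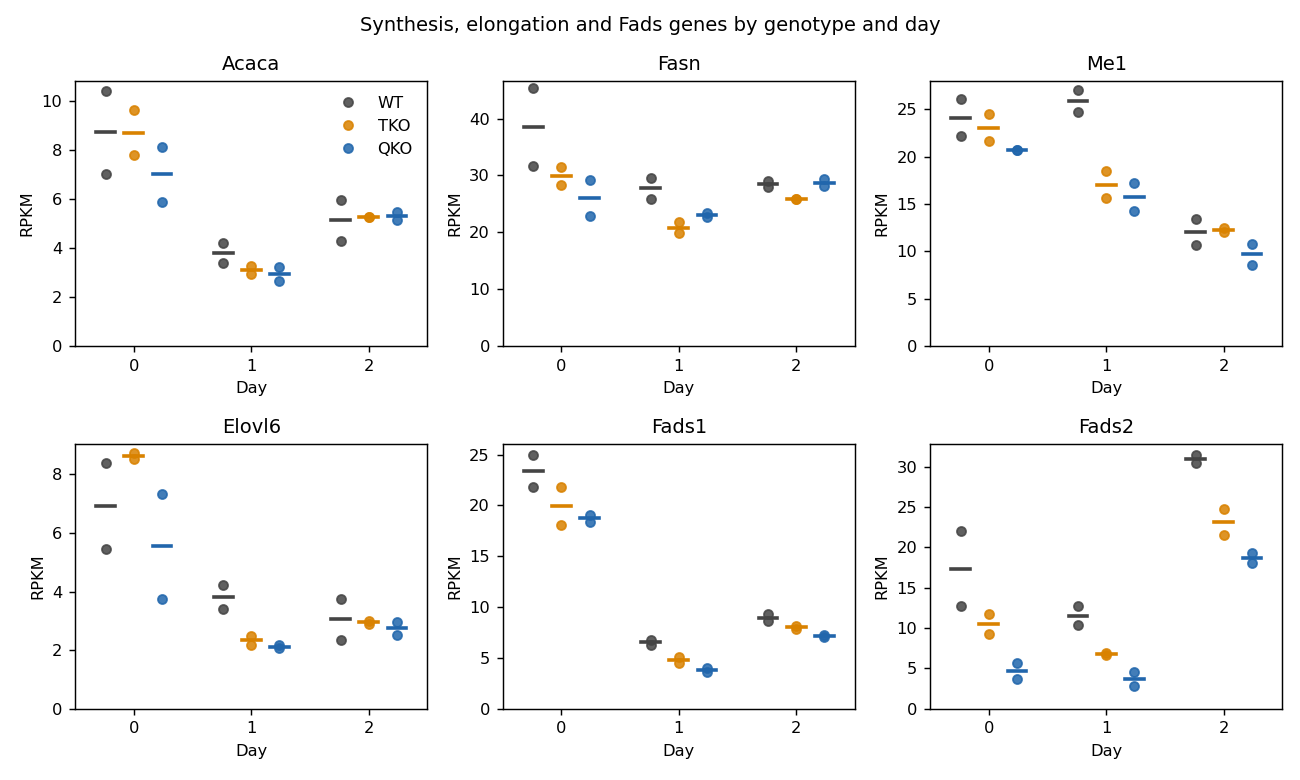
RPKM against day for Acaca, Fasn, Me1, Elovl6, Fads1 and Fads2 in WT, TKO and QKO, with 1 point per library and a bar at the mean of the 2 libraries of a group. Fads2 keeps the order WT, TKO, QKO on each day (22.0 and 12.7, 9.31 and 11.8, 3.63 and 5.71 RPKM at Day 0), and Fads1, Acaca and Elovl6 drop after Day 0.

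Counted over the members, the mutants' mean differed from WT at Day 0 for 3 of the 9 tested members, with 1 higher (Scd1) and 2 lower (Fasn and Fads2). Over all 11890 genes 19.1% were called higher and 18.8% lower, so this share was near the background. At Day 1 there were 3 lower (Fads1, Fads2 and Me1), where 1.86% of all genes were lower, and the count was 0 without either WT Day 1 library. The 1 call of a higher level at Day 1 (2.04% of all genes) and at Day 2 (0.0757%) was Scd3, from which nothing is read because of how it entered the tests, and no member was called lower at Day 2 (0.135%). For the interactions, 0 members were higher and 1 lower (Scd1) for Day 1 less Day 0, beside 6.61% and 8.33% of all genes, and for Day 2 less Day 0 the 1 call was again Scd3 (higher, beside 6.11%) with 0 lower (beside 9.22%). For the mutants against WT at Day 2 no member passed by voom on the recovered reads.

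**Figure D4:**
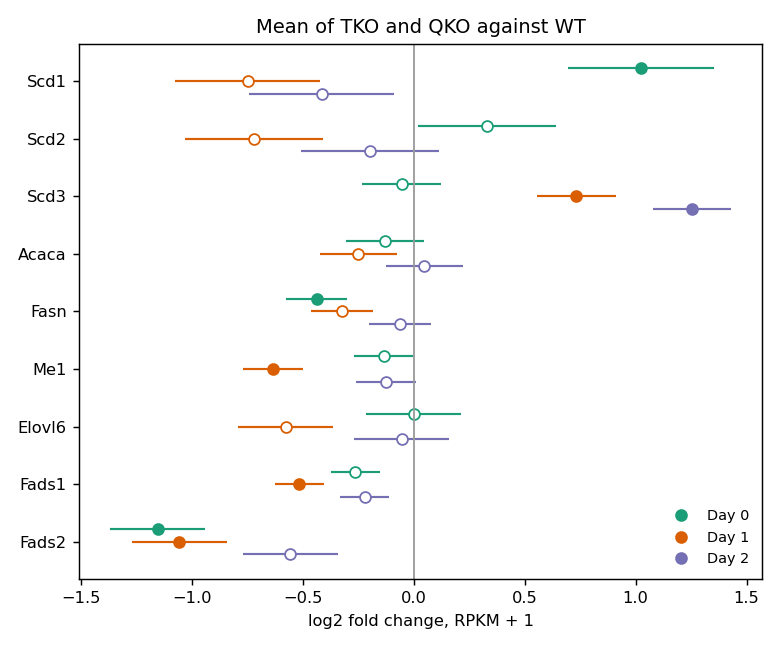
Change of the mean of TKO and QKO against WT, as log2 fold change of RPKM + 1 with its standard error, for the 9 tested members at Days 0, 1 and 2; filled points passed the adjusted threshold of 0.05. Fads2 is lower at each day (-1.15, -1.06 and -0.56, the last not past the threshold), and the Scd3 points (0.73 and 1.25) rest on QKO, through which Scd3 entered the tests.

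The day comparisons have to be read against a shift of all genes, whose median change from Day 0 to Day 1 was -0.34 in WT and -0.32 in the mutants on the deposited RPKM. In WT 2 members rose (Scd1 and Scd2) and 4 fell (Acaca, Fasn, Elovl6 and Fads1) of 9, where 20.4% of all genes were called higher and 46.1% lower. Less the median of all genes, the 4 that fell had -0.66 (Acaca), -0.10 (Fasn), -0.35 (Elovl6) and -1.35 (Fads1). With median-ratio scaling the split over all genes was 30.7% higher and 32.0% lower, and the falls of Fasn and Elovl6 were lost (-0.05 and -0.36, adjusted p = 0.79 and 0.21). In the mutants 3 members were called higher (Scd1, Scd2 and, through QKO, Scd3) and 6 fell, where 19.5% of all genes were higher and 50.3% lower. With median-ratio scaling that split was 32.6% and 33.9%. The falls of Fasn (-0.33 ± 0.11), Me1 (-0.40 ± 0.11) and Fads2 (-0.41 ± 0.17) were near that shift and were lost by scaling, where Fasn turned to 0.03 (adjusted p = 0.85), Me1 gave -0.05 (adjusted p = 0.74) and Fads2 -0.10 (adjusted p = 0.65). The changes of Scd1, Scd2, Acaca and Fads1 passed under each scaling in WT and in the mutants, and that of Elovl6 in the mutants.

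From Day 1 to Day 2 the shift was 0.08 in WT and 0.05 in the mutants. In WT 3 members rose (Scd1, Fads1 and Fads2) and Me1 fell, where 10.4% of all genes were called higher and 5.0% lower (8.01% and 7.95% with median-ratio scaling). The Fads1 rise of 0.40 ± 0.13 was at the threshold (adjusted p = 0.0499) and ended without any 1 of 16 libraries. In the mutants 6 were called higher (Scd1, Scd2, Acaca, Fads1, Fads2 and, through QKO, Scd3) and Me1 fell, where 10.7% were higher and 5.82% lower (8.56% and 8.19% with median-ratio scaling).

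**Figure D5:**
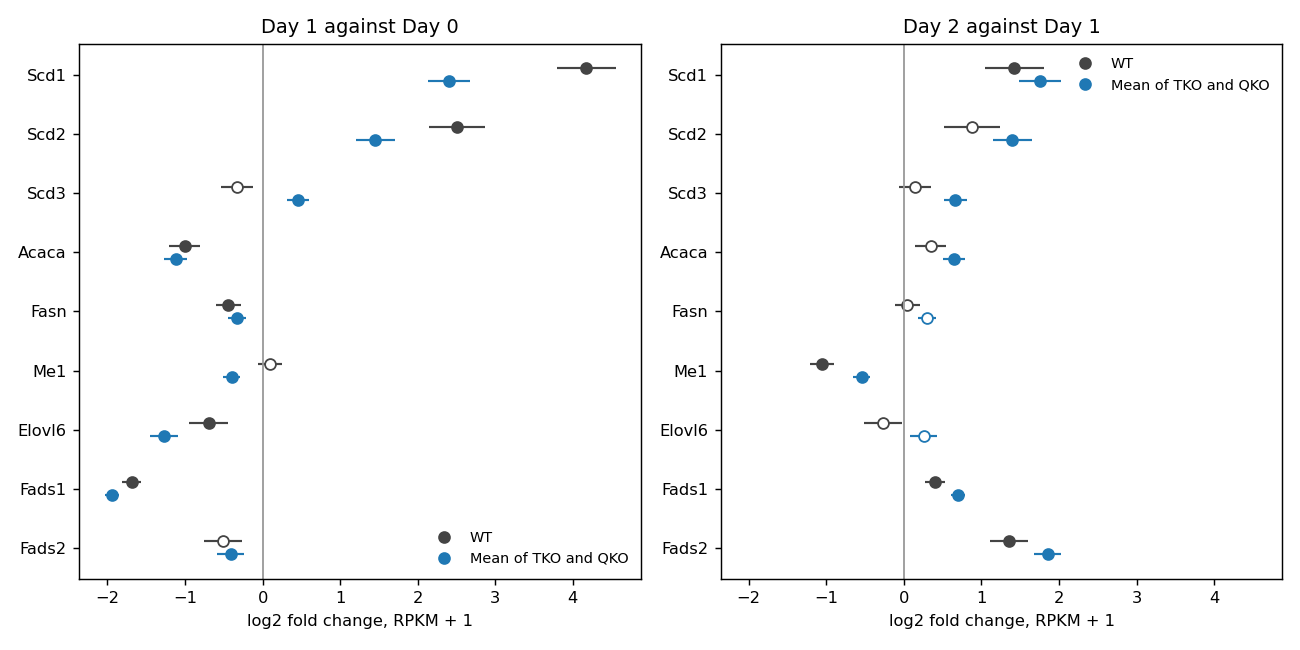
Change from Day 0 to Day 1 (left) and from Day 1 to Day 2 (right) as log2 fold change of RPKM + 1 with its standard error, in WT and in the mean of TKO and QKO, for the 9 tested members; filled points passed the adjusted threshold of 0.05. Scd1 and Scd2 rise most at Day 1 (4.17 and 2.504 in WT), where Fads1 falls (-1.69 in WT and -1.94 in the mutants), and Me1 falls at Day 2 (-1.06 and -0.54).

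Between the mutants, the difference for which these genes were chosen, the QKO libraries lay below both TKO libraries at Day 0 for Scd1, Scd2, Elovl6, Fads2 and Me1 and above for Scd3, that is for 5 and 1 of the 9 tested members. Over all genes 28.8% lay below and 23.4% above. The TKO mean was 3.88 times the QKO mean for Scd1, 3.17 times for Scd2 and 2.26 times for Fads2. At Day 1 the counts were 3 below (Scd2, Fads1 and Fads2) and 2 above (Scd3 and Fasn), beside 29.5% and 22.2% of all genes, and at Day 2 3 below (Fads1, Fads2 and Me1) and 2 above (Scd3 and Fasn), beside 42.3% and 14.2%. Nothing is read from these counts, since the choice of the members used the same difference. For Scd2 the ratio of the TKO to the QKO mean was 1.86 at Day 1 and 1.15 at Day 2, and for Fads2 it was 1.81 and 1.24.

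The transcript most like Scd1 over the 18 libraries was Acsl3 (Pearson r = 0.983), an enzyme that activates long-chain fatty acids, followed by Slc2a4, the insulin-responsive glucose transporter (0.980), Acsl6 (0.978), Scd2 (0.973) and Atg4a (0.973). For Scd2 they were Scd1, Acsl3 (0.967), Snap23 (0.950), Ssx2ip (0.948) and Blzf1 (0.948), and for Fasn Rfx7 (0.892), Tmed5 (0.841), Mfap3l (0.824), Tmtc3 (0.811) and Rev1 (0.808). The transcript most like Scd3 was Pkd2l1 (0.998), and the next was at 0.860. These libraries fall into 3 days, which most genes follow, so the coefficients are a description of a shared course.

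Around these enzymes, 7 of 14 tested genes of fatty acid activation and triglyceride synthesis were higher in the mutants at Day 0 and 2 lower, where 19.1% and 18.8% of all genes were, with a median of 0.37 against 0.00 over all genes. Gpam, the mitochondrial acyltransferase that starts glycerolipid synthesis, was higher by 2.38 ± 0.26 (limma, adjusted p = 2.2e-05), with 7.62 and 2.66 RPKM (WT), 23.6 and 23.6 (TKO) and 27.4 and 41.0 (QKO). Acsl4, which activates arachidonic acid, was higher by 1.27 ± 0.27 (adjusted p = 0.0032), and Dgat2, which makes triglycerides, by 0.94 ± 0.23 (adjusted p = 0.0076). At Days 1 and 2 the count of these 14 genes past the threshold was 0. Over all genes 2.04% were called higher and 1.86% lower at Day 1, and 0.0757% and 0.135% at Day 2. Among 10 tested genes of acetyl-CoA and NADPH supply, 2 were higher and 1 lower at Day 0, a share near that of all genes (19.1% and 18.8%), with Idh1, a cytosolic source of NADPH, at 1.46 ± 0.30 (adjusted p = 0.0024). At Day 1 Acss2, which makes acetyl-CoA from acetate, was lower by -0.68 ± 0.14 (adjusted p = 0.015).

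Among 15 tested regulators of the SREBP, LXR and ChREBP group, 4 were higher and 0 lower in the mutants at Day 0, beside 19.1% and 18.8% of all genes. Prkaa1 was higher by 0.92 ± 0.18 (limma, adjusted p = 0.0018) and Prkaa2 by 0.80 ± 0.23 (adjusted p = 0.016). At Day 1 there was 1 higher (Prkaa2, 0.90 ± 0.23, adjusted p = 0.046) and 1 lower (Insig1), beside 2.04% and 1.86%. Srebf1 and Srebf2 passed on neither day, with adjusted p of 0.62 and 0.54 at Day 0 and 0.36 and 0.66 at Day 1. Insig1, which retains SREBP in the endoplasmic reticulum and is itself a target of SREBP, was higher at Day 0 by 0.62 ± 0.19 (adjusted p = 0.023) and lower at Day 1 by -0.91 ± 0.19 (adjusted p = 0.020), when it had 71.3 and 69.5 RPKM (WT), 43.8 and 34.1 (TKO) and 45.2 and 27.8 (QKO). Of 17 genes of cholesterol synthesis and uptake, 11 were lower and 0 higher in the mutants at Day 1, beside 1.86% and 2.04% of all genes, with a median of -0.80 and Idi1 at -1.02 ± 0.21 (adjusted p = 0.017). With differentiation 16 of them rose and 0 fell in WT from Day 0 to Day 1 (median 2.40), where 20.4% of all genes were called higher. In the mutants 17 of 17 rose (median 1.93), where 19.5% were. Over this step the median of the 9 tested synthesis and desaturation genes above was -0.44 in WT and -0.40 in the mutants. That was near the median of all genes (-0.34 and -0.32). Of 15 tested genes of the elongation cycle and other desaturases, 6 rose and 9 fell in WT over the same step, beside 20.4% and 46.1% of all genes, with Fads3, a close relative of the other Fads genes, at 2.18 ± 0.15 (adjusted p = 3.5e-08).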

How the data were processed

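RNA of MuSCs (Day 0) and of cells at Days 1 and 2 of differentiation was sequenced by the authors (TruSeq libraries, Illumina HiSeq), aligned with HISAT2 2.0.5 to the protein-coding genes of GRCm38.p5 and quantified with StringTie, whose version and strand setting are not given in the sources used here. The values are the RPKM the authors deposited, in 1 table of 22013 rows and 18 libraries. Groups and replicate numbers came from the labels. Where a symbol had several rows, only that with the largest mean RPKM was used, which left out 1401 rows.

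Genes with at least 1 RPKM in at least 2 libraries (11890) were fitted as log2(RPKM + 1), which understates changes of low genes, with limma 3.58.1 in R 4.3.3, 1 mean for each of 9 groups, and trend and robust moderation. Tests were tried on simulated data first. P-values of 9 contrasts were adjusted by Benjamini-Hochberg within a contrast, with 0.05 as the threshold. The mean of TKO and QKO was tested against WT, and QKO against TKO, or either alone against WT, was not tested. Whole reads and depth were recovered from the steps of the RPKM, with reads within 0.02 of a whole number in every library for 15564 of 15570 genes above 0 in at least 6 libraries, and for 0.4% of 500 control genes. Among recovered counts of 1 to 20 reads 62.3% were even. The cause was not tested, so small counts may not be counts of independent reads. Depth was 34.8 to 60.7 M reads, where 1 read on 1 kb is 0.0165 to 0.0288 RPKM. This limits Scd3 and Scd4.

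The members and gene lists were chosen with earlier results of these data known. Named were all members, from each list up to 3 genes past the threshold with the largest change in a contrast, the 5 genes most correlated with Scd1, Scd2 and Fasn, and the neighbours of the Scd cluster; the likeness to Scd3 was added after its values were seen. Alternatives changed the pseudocount, the filter, the scaling, the length trend, the moderation, the libraries fitted and the replicate block, used voom on the recovered reads, and left out each library. Python 3.11.15 with pandas 2.3.3 and Matplotlib 3.10.9 served for the rest.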

Additional observations from a re-analysis of the deposited data

Results flagged for a closer look

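The change of Scd1 from Day 0 to Day 1 differed between the mutants and WT, with an interaction of -1.77 on the log2 scale (limma, adjusted p = 0.021). As values without a test, the rise was 2.01 in TKO and 2.80 in QKO, against 4.17 in WT. At Day 0 TKO lay 1.73 and QKO 0.32 above WT. The change of Scd3 from Day 0 to Day 2 gave an interaction of 1.31. Scd3 entered the tests only through the QKO libraries, where it is high, and its span lies inside that of Pkd2l1, so this value supports nothing about the mutants. Groups of 2 libraries are too small for a test of single outlying libraries.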

How the results depend on the processing

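Of 1062 values of single genes under the other settings, 956 stayed the same, and of 99 counts 81 stayed within 1.5 times. For the tested contrasts the same meant an unchanged direction and side of the threshold. For QKO against TKO, which was not tested, it meant a move of less than 1 standard deviation of the replicates. For the mutants against WT at Day 0 (3 members called) removing the length trend gave 5 and fitting only the libraries compared gave 1. At Day 2 (1 called, Scd3, which entered the tests only through QKO) the count was 0 with a pseudocount of 0.1, with a mean RPKM of at least 5, with voom on the recovered reads and with only the libraries compared, and 2 with no filter. WT from Day 1 to Day 2 (4 called) gave 2 with voom. The interaction of Day 1 (1 called) gave 2 with a pseudocount of 0.1 or 0.5, no filter, the replicate block or only the libraries compared. The interaction of Day 2 (1 called) gave 2 with a pseudocount of 0.1 or 0.5, no filter or the length trend removed, and 0 with a mean RPKM of at least 5, where Scd3 is not tested. Leaving out 1 library gave 1 to 3 calls for the mutants against WT at Day 0, 0 to 4 at Day 1, 2 to 4 for WT from Day 1 to Day 2, 0 to 3 for the interaction of Day 1 and 1 to 3 for that of Day 2. Signs turned, in values near 0, for Elovl6 at Day 0 with a pseudocount of 0.1 (-0.0063) or 0.5 (-0.0030), quantile normalization (-0.11) or the length trend removed (-0.20), for Fasn in WT from Day 1 to Day 2 with median-ratio scaling (-0.069), the length trend removed (-0.047) or voom (-0.070), for Fasn in the mutants from Day 0 to Day 1 with median-ratio scaling (0.027) or voom (0.028), for Fads2 in the same comparison with quantile normalization (0.089), and for Elovl6 in the interaction of Day 2 with quantile normalization (0.084) or the length trend removed (0.13). The length trend removed also turned Acaca at Day 2 (-0.0033), Scd3 in WT from Day 0 to Day 1 (0.023), and Acaca (0.092) and Fads2 (-0.067) in the interaction of Day 1. Leaving out 1 library turned the sign of these uncalled values, with ranges for the mutants against WT at Day 0 Scd2 from -0.14 to 0.80, Scd3 from -0.27 to 0.16, Acaca from -0.38 to 0.13, Elovl6 from -0.27 to 0.27, and for the mutants against WT at Day 2 Acaca from -0.15 to 0.25, Me1 from -0.28 to 0.030, Elovl6 from -0.31 to 0.20, and for WT from Day 0 to Day 1 Me1 from -0.0097 to 0.21, and for WT from Day 1 to Day 2 Fasn from -0.053 to 0.14, and for the interaction of Day 1 Acaca from -0.37 to 0.14, Fasn from -0.14 to 0.37, Fads2 from -0.28 to 0.47, and for the interaction of Day 2 Acaca from -0.077 to 0.43, Me1 from -0.14 to 0.17, Elovl6 from -0.33 to 0.22, Fads1 from -0.052 to 0.14. The cause of these changes was not tested. The deviations of same-numbered libraries correlated from -0.38 to 0.55 over 36 pairs of groups (median 0.039), over 0.1 in 10. These pairs mix genotypes and days, so they cannot show whether same-numbered libraries of a genotype were paired across days. The main fit used no pairing. With the replicate block the calls of Fads1 in WT from Day 1 to Day 2 (adjusted p = 0.062) and of Fads2 in the mutants from Day 0 to Day 1 (adjusted p = 0.055) ended. Depth limits Scd3 and Scd4, at 0 to 1205 and 1 to 169 reads.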
